A study of Zea mays with 7 samples.

Results

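Sites at which H3K9ac formed a narrow region in both husk and V2-IST were examined across the maize genome. A one-to-one site was a place where 1 region of the husk list and 1 region of the V2-IST list overlapped by at least 1 bp and neither overlapped any other region of the opposite list. Members were selected on their measured lengths: the husk region had to be under 600 bp, and husk length divided by V2-IST length had to be over 1 and under 2.5. This selected 830 of 15878 one-to-one sites (5.23%, 95% Wilson interval 4.89 to 5.58%), or 27.1% of the 3061 husk regions under 600 bp and 9.78% of the 8488 V2-IST regions under 600 bp.

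H3K9ac is the acetylation of lysine 9 on the tail of histone H3. Acetylation lowers the positive charge of the tail and is read by proteins that take part in transcription, and in plants and animals the mark lies mainly just downstream of the starts of active genes and at active enhancers. A narrow region is on the scale of a few nucleosomes, whereas the mark at many active genes spreads further into the transcribed part.

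The ChIP was carried out with the antibody ab10812 on the inbred line B73, which is the source of the maize reference genome, grown in a greenhouse. Husk (3 ChIP samples and 1 input sample) was the soft inner leaf layers around unpollinated ears whose silks were emerging, freed of the ear and of the lignified outer layers. V2-IST (2 ChIP samples and 1 input sample) was the inner stem of V2 seedlings, from which the outer leaves with their sheaths and the exposed blades had been cut away. The tissues therefore differed in organ and in developmental stage together, all plants were of 1 genotype, and both tissues mix several cell types. The deposited data were 2 lists, 1 per tissue, with 28004 husk and 17170 V2-IST regions, each region given as chromosome, start and end on B73 RefGen_v4 (AGPv4). They held no signal, no score and no value per replicate, so depth is unknown from them and no difference below could be set against a spread between replicates. All intervals are 95% Wilson intervals for shares and order-statistic intervals for medians, which cover counting over sites only. The husk list combines 3 replicates and the V2-IST list 2. The paper puts the greater length of husk regions partly down to the merging of these replicates. The size of that part was not tested here.

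The members sat close to the upper length limit in husk and well under it in V2-IST. The husk region had a median of 551 bp (546 to 555 bp, n = 830; quartiles 511 and 577 bp, range 363 to 599 bp) and the V2-IST region a median of 371 bp (365 to 379 bp; quartiles 324 and 423 bp, range 195 to 570 bp). The median ratio was 1.45 (1.42 to 1.47), and the husk region was longer by a median of 165 bp (range 6 to 338 bp). These values were used by the rule and are given as a description. In husk, 419 members were 550 to 599 bp long, 248 were 500 to 549 bp, 116 were 450 to 499 bp, 38 were 400 to 449 bp and 9 were under 400 bp. In V2-IST, 393 members were 300 to 399 bp long and 257 were 400 to 499 bp, with 105 at 250 to 299 bp, 36 under 250 bp and 39 at 500 bp or more. The ratio lay between 1.25 and 2 in most members, with 292 under 1.5 and 296 above, while 181 had a ratio under 1.25 and 61 a ratio of 2 or more. For the other 15048 one-to-one sites the medians were 1051 bp in husk and 620 bp in V2-IST.

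**Figure D1:**
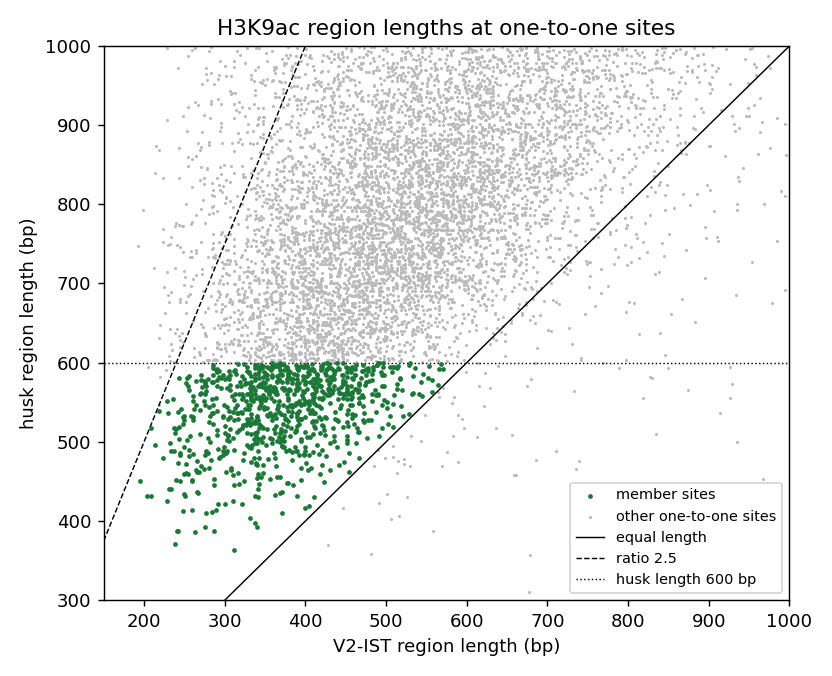
Husk region length (vertical, bp) against V2-IST region length (horizontal, bp) for one-to-one sites with both lengths under 1000 bp, 1 point per site, members in green and other sites in grey, with lines at equal length, at a ratio of 2.5 and at a husk length of 600 bp. The 830 members fill the corner under the 600 bp line and run without a gap into the grey points above it.

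The husk limit of 600 bp did not fall in a gap of the lengths. There were 104 members with a husk region of 590 to 599 bp and 109 sites of 600 to 609 bp that met the rule in all else. Just inside was a member on chromosome 1 (66125940 to 66126538) with 599 bp in husk and 491 bp in V2-IST, and just outside a site on the same chromosome (225533818 to 225534417) with 600 bp in husk and 344 bp in V2-IST. The ratio limits removed few sites, since 830 of the 906 one-to-one sites with a husk region under 600 bp were members (91.6%), 72 had a ratio of 1 or less and 4 a ratio of 2.5 or more. The lowest ratio among members, 1.01, belonged to a site on chromosome 8 (137260387 to 137260949) with 563 bp in husk and 557 bp in V2-IST, and a site on chromosome 1 (178718403 to 178718892) with 490 bp in each tissue lay just outside. The highest ratio, 2.49, belonged to a site on chromosome 9 (99655534 to 99656050) with 517 bp in husk and 208 bp in V2-IST, and a site on chromosome 5 (195879213 to 195879759) with 547 and 218 bp, a ratio of 2.51, lay just outside.

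Narrow husk regions were uncommon in general. They made up 906 of the 15878 one-to-one sites (5.71%) and 3061 of the 28004 husk regions (10.9%). Of the 7832 one-to-one sites with a V2-IST region under 600 bp, the husk region was also under 600 bp at 869 (11.1%, 10.4 to 11.8%) and over 1000 bp at 27.6%, and the median husk length over these sites was 807 bp. The shortest husk region of a member, on chromosome 3 (193704878 to 193705240), measured 363 bp beside 312 bp in V2-IST. The shortest V2-IST region of a member, on chromosome 10 (71389271 to 71389465), measured 195 bp and lay in a husk region of 451 bp, and the longest, on chromosome 2 (48089215 to 48089784), measured 570 bp beside 592 bp in husk. For scale, the shortest region of the whole list was 219 bp in husk and 193 bp in V2-IST, so members reached down nearly to the shortest V2-IST regions listed but not to the shortest husk regions.

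At most members the V2-IST region lay wholly inside the husk region, with a margin on both sides. This was so at 731 of 830 members (88.1%, 85.7 to 90.1%), against 90.1% of all one-to-one sites. The latter include sites with a ratio under 1, where nesting is not possible. Of the 11969 sites with the same range of ratios and a husk region of 600 bp or more, 91.7% were nested (91.2 to 92.2%). Nesting was thus slightly less common among members than at those sites. The lengths used by the rule differ between these groups, and their part in this was not tested. The husk region extended past the V2-IST region by a median of 83 bp at the lower coordinate and 81.5 bp at the upper coordinate, and the lower side had the larger margin at 420 members (50.6%, 47.2 to 54.0%). Neither side was favoured beyond counting error along the chromosome, which the lists describe without regard to strand. Within a site the margins were unequal, with medians of 113.5 bp on the larger side and 52 bp on the smaller. Both margins were at least 50 bp at 436 members (52.5%), against 74.9% of the other sites, a margin that the lengths used by the rule limit. Shared ends were rare, with an identical start at 2 members and an identical end at 3.

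The midpoints of the regions nearly coincided. The midpoint shifted between husk and V2-IST by a median of 27.5 bp in members (25.5 to 29.5 bp), against 88.5 bp in the other sites (86.5 to 91 bp). Because the rule caps the lengths of members, it also limits how far their midpoints can lie apart, so the shift was also taken relative to length. It was 5.13% of the husk length in members (4.81 to 5.47%) and 8.76% in the other sites (8.57 to 8.94%). Restricting the other sites to the 11969 with the same range of ratios and a husk region of 600 bp or more gave 6.96% (6.80 to 7.12%). The ratio also limits this relative shift, and its median was 1.52 in those sites and 1.45 in members. The groups were thus not matched, and the relative shift is a description too. A shift under 50 bp was found at 655 members (78.9%, 76.0 to 81.6%) and a shift over 100 bp at 26 (3.13%), against 39.6% and 35.2% of those 11969 sites and 32.6% and 46.0% of all other sites. Since the cap on length bears on these counts in bp, they are given as a description. Where the V2-IST region was nested, the larger side held a median of 65.2% of the length difference in members (63.6 to 66.3%, n = 731) against 71.2% in the sites of the same range of ratios (70.8 to 71.6%, n = 10981) and 73.4% in all other sites (73.1 to 73.8%, n = 13572). The largest shift among members, 210.5 bp, was on chromosome 3, where the husk region (123750686 to 123751077, 392 bp) and the V2-IST region (123750534 to 123750808, 275 bp) overlapped only in part.

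**Figure D2:**
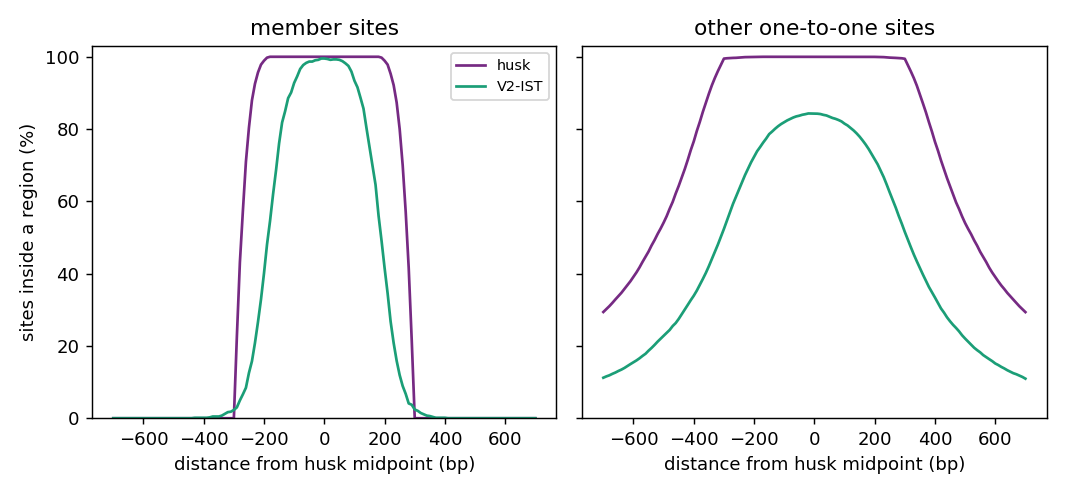
Percentage of sites at which a position lay inside the site's own husk (purple) or V2-IST (green) region, by distance from the husk midpoint (bp), for members (left) and other one-to-one sites (right). At 0 bp the V2-IST region was present at 99.5% of members and 84.3% of the other sites, and at 200 bp above the midpoint at 41.6% of members and 71.6% of the other sites.

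Coverage around the husk midpoint gave the same picture. The V2-IST region covered the husk midpoint at 99.5% of members, against 84.3% of the other sites, although the V2-IST regions of members were much the shorter. The limit on the ratio, which the other sites did not have to meet, favours this. It covered 92.8% and 93.4% of members at 100 bp below and above the midpoint, and 40.1% and 41.6% at 200 bp, so the profile was nearly symmetric. At 300 bp it was 2.29% below and 2.41% above, which are sites where the V2-IST region passed the husk region.

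At 99 members the V2-IST region reached past the husk region at one end, at 45 past the lower end and at 54 past the upper end, and at no member did it pass both ends, which a ratio over 1 does not allow. The overhang was short, with a median of 17 bp (range 1 to 152 bp), and at 55 of the 99 it was 20 bp or less. These members had longer V2-IST regions than the nested ones (medians of 454 and 364 bp) and a lower ratio (1.15 and 1.49), which are values that the rule used.

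The member closest to the median husk length on each chromosome shows how much the placement varied at a near-constant husk length of 550 to 553 bp. On chromosome 8 (husk 22494280 to 22494832, V2-IST 22494370 to 22494719) a V2-IST region of 350 bp lay centrally, with margins of 90 and 113 bp. On chromosome 7 (112902375 to 112902926) the margins around 335 bp were 86 and 131 bp, and on chromosome 10 (146390251 to 146390802) those around 405 bp were 67 and 80 bp. These sites had the V2-IST region near the centre of the husk region. On chromosome 5 (husk 15735 to 16286, V2-IST 15795 to 16023) a V2-IST region of 229 bp left 60 bp below and 263 bp above, and on chromosome 3 (husk 26931511 to 26932062) 361 bp left 17 and 174 bp. On chromosome 2 (husk 141945959 to 141946508) a V2-IST region of 501 bp began 14 bp before the husk region, and on chromosome 9 (158464041 to 158464591) one of 482 bp ended 2 bp after it. The V2-IST lengths of these 10 members thus ran from 229 to 501 bp.

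**Figure D3:**
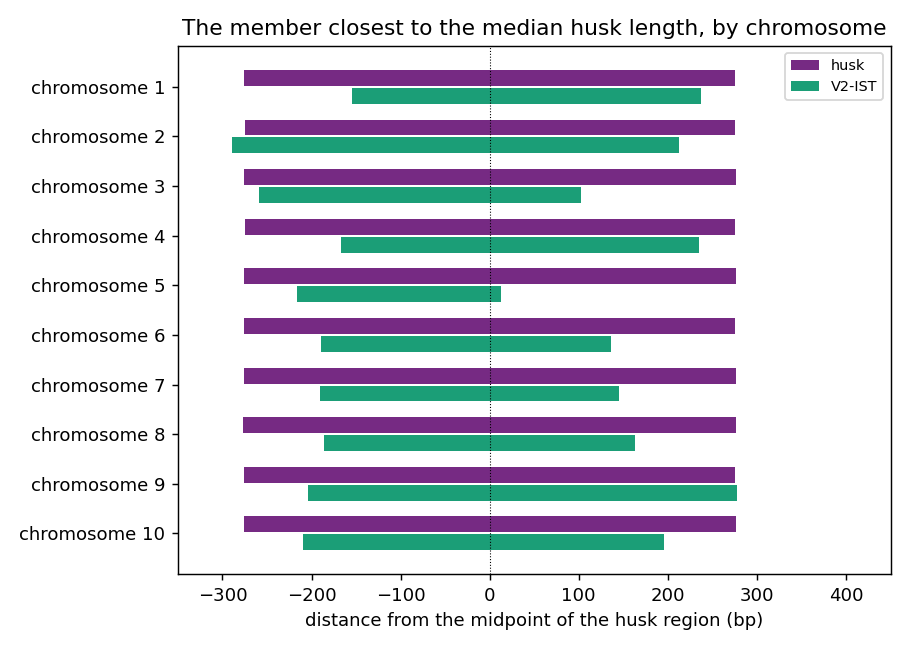
Husk (purple, upper bar) and V2-IST (green, lower bar) H3K9ac regions of the member closest to the median husk length on each of the 10 chromosomes, drawn to scale against the distance from the husk midpoint (bp). Husk lengths were 550 to 553 bp, while V2-IST lengths ran from 229 bp on chromosome 5 to 501 bp on chromosome 2.

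Members had somewhat fewer H3K9ac regions close by than other sites. Another husk region lay within 5 kb at 158 members (19.0%, 16.5 to 21.8%), against 25.3% of the other sites (24.6 to 26.0%) and 24.9% of all one-to-one sites. The nearest other husk region was a median of 17789 bp away (15677 to 20225 bp), against 14933 bp (14263 to 15677 bp) for the other sites. The 2155 husk regions under 600 bp without a V2-IST region were also short but stood at 25.2% (23.4 to 27.1%) and 15497 bp (13785 to 17230 bp), so for these 2 measures they resembled the other sites, with an interval for the distance that overlapped that of members. Length and spacing varied together over all one-to-one sites: the share with another husk region within 5 kb was 19.6% for husk lengths under 600 bp, 20.4% for 600 to 799 bp, 20.1% for 800 to 999 bp, 24.6% for 1000 to 1499 bp and 34.8% for 1500 bp or more. Members were therefore level with sites of up to 999 bp, and it was the longest sites that had close neighbours more often. The length classes were chosen after the data had been seen.

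In V2-IST, close neighbours were about as frequent at members as at other sites. Another V2-IST region lay within 5 kb at 86 members (10.4%, 8.47 to 12.6%), against 11.8% of the other sites (11.3 to 12.3%), and the nearest was a median of 35199 bp away (29870 to 41825 bp), against 33048 bp (31801 to 34224 bp). The intervals overlapped in both measures. The nearest other husk region of a member had a median length of 997.5 bp (944 to 1033 bp), against 1020 bp (1010 to 1033 bp), and had a V2-IST region of its own in 61.0% of cases (57.6 to 64.2%), against 57.1% (56.3 to 57.9%). A member's neighbour was thus usually a region of ordinary length rather than another narrow one, with 105 of 830 neighbours under 600 bp (12.7%, 10.6 to 15.1%) against 11.0% at the other sites.

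Members lay far apart for the most part, but a set of this size is sparse by its number alone. Their spacing was not compared with that of an equally large set of other sites and is given as a description. The nearest other member was a median of 819472 bp away, with 8 members within 5 kb of another member, 12 within 10 kb and 91 within 100 kb (11.0%). The closest pair lay on chromosome 4, at 203189341 to 203189893 (553 bp in husk, 498 bp in V2-IST) and 203191309 to 203191873 (565 bp in husk, 434 bp in V2-IST), 1415 bp apart. Of 2087 windows of 1 Mb with a one-to-one site, 658 held a member and 517 of these held exactly 1. The highest number was 4, reached in 6 windows, which began at 246 Mb on chromosome 1, 4 Mb on chromosome 2, 201 Mb on chromosome 3, 135 and 158 Mb on chromosome 7 and 161 Mb on chromosome 8. At the other extreme stood a member on chromosome 8 (51647061 to 51647580, 520 bp in husk, 453 bp in V2-IST), with no other husk region within 421050 bp. It was followed by 2 members on chromosome 5, at 128379152 to 128379725 and 115889180 to 115889652, with distances of 353830 and 318167 bp. The next were a member on chromosome 1, at 170519805 to 170520288, with 272145 bp, and a member on chromosome 7, at 123295294 to 123295868, with 267453 bp.

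Every chromosome held members in roughly the proportion of its one-to-one sites. The share of sites that were members was highest on chromosome 9 (78 members, 6.58%, 5.30 to 8.13%) and chromosome 3 (111 members, 6.38%, 5.33 to 7.63%), and lowest on chromosome 5 (81 members, 4.33%, 3.49 to 5.35%) and chromosome 8 (62 members, 4.37%, 3.42 to 5.56%). The intervals of all 10 chromosomes overlapped. Per Mb of chromosome span, taken up to the last listed region, the number of members ran from 0.325 on chromosome 10 to 0.488 on chromosome 9.

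Maize chromosomes carry most of their genes toward the arms, and the middle is rich in repeats. Members, like the other sites, were more frequent toward the ends, but leaned slightly more to the middle. The midpoint lay in the central 50% of the chromosome span at 341 members (41.1%, 37.8 to 44.5%), against 36.1% of the other sites (35.3 to 36.9%) and 36.4% of all one-to-one sites. The same share, 41.1% (39.0 to 43.2%), was found for the 2155 husk regions under 600 bp without a V2-IST region, so the lean was common to short husk regions with and without a V2-IST region. By husk length over all one-to-one sites, it was 36.9% (35.3 to 38.5%) at 600 to 799 bp and 38.8% (37.1 to 40.4%) at 800 to 999 bp. It was 37.6% (36.1 to 39.1%) at 1000 to 1499 bp and 31.3% at 1500 bp or more. The intervals from 600 to 1499 bp overlapped that of members, so the lean was clearest against the longest sites. With the husk limit at 500 bp in place of 600 bp, 163 sites remained and the share was 36.8% (29.8 to 44.4%), with an interval that held the value of the other sites. With the span cut into 10 equal bins from low to high coordinates, members made up 7.13% of the sites in bin 5 (5.63 to 9.01%) and 6.70% of those in bin 6 (5.37 to 8.33%), against 4.29% of those in bin 2 (3.36 to 5.45%). Bins 5 and 6 were the highest of the 10 and bin 2 the lowest, and the intervals of bins 6 and 2 overlapped. Bins 4 and 7 stood at 5.10% and 5.15%, near the 5.23% over all one-to-one sites. Central sites had fewer close neighbours whether or not they were members. Another husk region lay within 5 kb at 12.6% of central and 23.5% of outer members, against 18.5% of central and 29.1% of outer other sites. The lengths of central and outer members differed little (552 and 551 bp in husk, 370 and 373 bp in V2-IST).

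**Figure D4:**
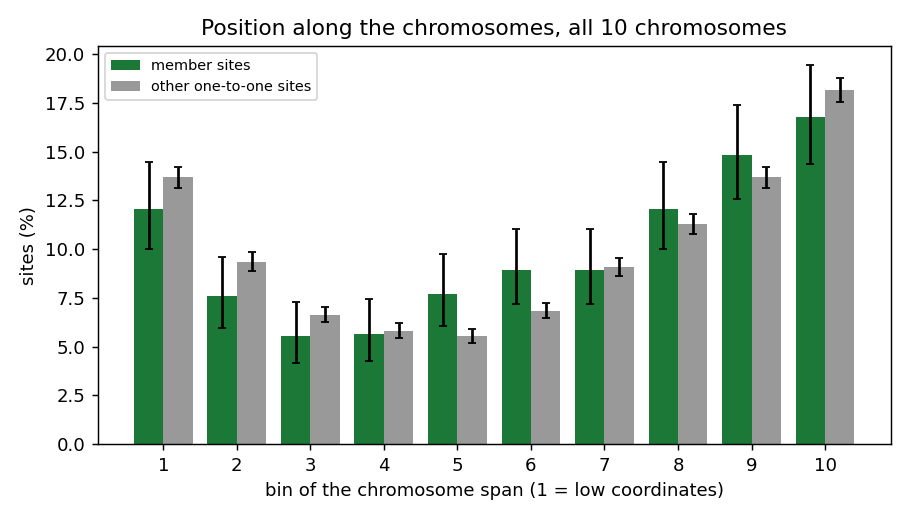
Percentage of members (green, n = 830) and of other one-to-one sites (grey, n = 15048) in 10 equal bins of the chromosome span, over all 10 chromosomes, with 95% Wilson intervals. Both groups were lower in the inner bins than at the ends, and in bins 5 and 6 the members stood at 7.71% and 8.92% and the other sites at 5.54% and 6.84%.

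The study combined H3K9ac with DNA methylation and chromatin accessibility to list intergenic enhancer candidates, which were low-methylated regions that overlapped a DNase I hypersensitive site and an H3K9ac region and lay outside genes and promoters. Enhancers are stretches of DNA bound by transcription factors that raise the transcription of a gene from a distance. The candidates were made with the same H3K9ac lists, so the overlap below describes where the members lie and is not separate evidence about them. Of 830 members, 79 overlapped a candidate (9.52%, 7.70 to 11.7%), against 373 of the other 15048 sites (2.48%, 2.24 to 2.74%) and 2.85% of all one-to-one sites. Taking the husk midpoint in place of the whole region, which keeps long regions from touching more candidates by their length alone, left the members at 9.52% and the other sites at 2.03%. The 2155 husk regions under 600 bp without a V2-IST region stood at 11.1% (9.83 to 12.5%), so a high share was common to short husk regions and was not particular to those with a V2-IST region. Over all one-to-one sites, the share was 9.16% for husk lengths under 600 bp, 3.57% for 600 to 799 bp, 1.77% for 800 to 999 bp, 1.57% for 1000 to 1499 bp and 3.06% for 1500 bp or more. Among the 72 sites under 600 bp in husk whose V2-IST region was as long or longer, it was 4.17% (3 sites, 1.43 to 11.5%).

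**Figure D5:**
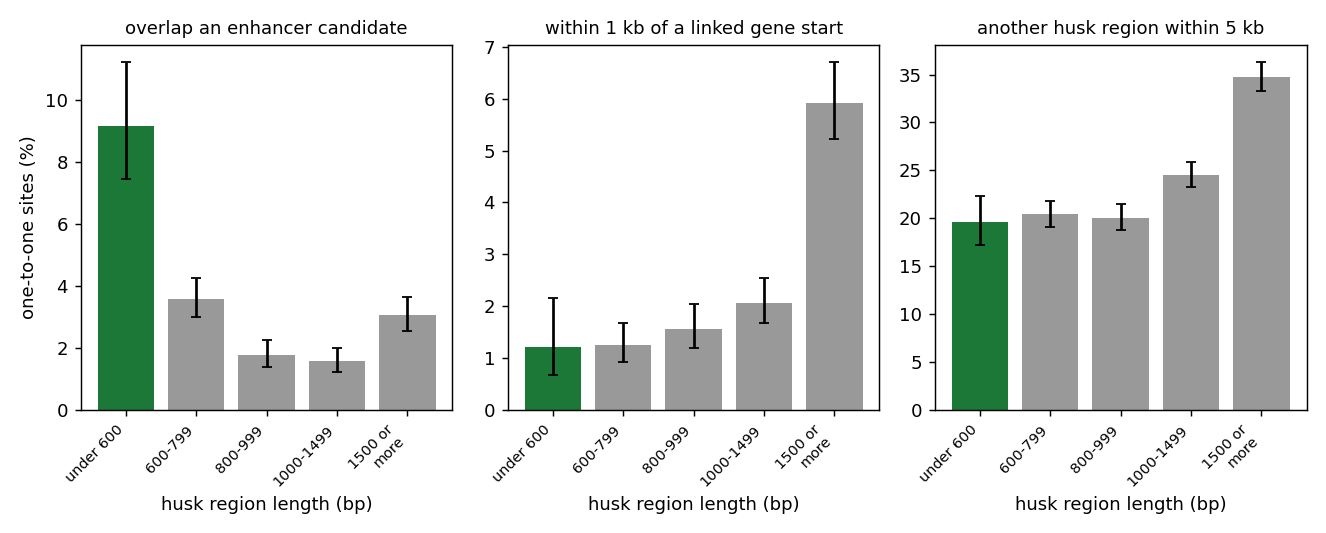
Percentage of one-to-one sites that overlapped an enhancer candidate (left), lay within 1 kb of a linked gene start (middle) or had another husk region within 5 kb (right), by husk region length (bp), with 95% Wilson intervals. The green bar holds the 906 sites under 600 bp, of which 830 were members, and reads 9.16%, 1.21% and 19.6%, against 3.06%, 5.92% and 34.8% at 1500 bp or more.

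The members at candidates were mostly at those listed for both tissues. The class totals were counted from the study's supplementary list and not taken from its text, where the shared and husk-specific totals differ slightly. By the class in that list, 47 of the 79 were shared candidates (21.2% of the 222 shared candidates), 27 were V2-IST-specific (15.4% of 175) and 5 were husk-specific (0.455% of 1098). A member has an H3K9ac region in both tissues by the rule, so membership favoured shared candidates, and those at tissue-specific candidates carried H3K9ac in the other tissue as well. All one-to-one sites together overlapped 219 of the shared, 139 of the V2-IST-specific and 114 of the husk-specific candidates. In none of the 79 did another husk region lie in the same candidate. The husk region lay wholly within the candidate at 59 of the 79 and the V2-IST region at 66, and a median of 53.4% of the candidate's length was covered in husk and 38.2% in V2-IST. The length limit of the rule favours such containment, and these counts were not made for the other one-to-one sites. The husk midpoint was a median of 92 bp from the candidate's midpoint (76.5 to 117 bp).

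Among members, the share at candidates differed by position along the chromosome. It was 49 of 341 in the central 50% of the span (14.4%, 11.0 to 18.5%) and 30 of 489 in the outer parts (6.13%, 4.33 to 8.62%), while the other sites stood at 2.69% (2.29 to 3.15%) and 2.36% (2.08 to 2.68%). Short husk regions without a V2-IST region were not split by position, so this difference is not shown to be particular to members. Members at candidates lay farther from the nearest other husk region than members without one, with medians of 23781 bp (17273 to 46006 bp, n = 79) and 17299 bp (14637 to 19723 bp, n = 751), although these intervals overlapped. Their husk length was equal (medians of 551 bp in each group), and the V2-IST length was 356 bp (344 to 369 bp) with a candidate and 373 bp (367 to 381 bp) without. The midpoint shift was 27.5 bp in each group. By class, the median ratio was 1.61 at shared candidates (n = 47), 1.37 at V2-IST-specific ones (n = 27) and 1.69 at husk-specific ones (n = 5), a description of values that the rule used.

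One member lay at a locus that the study names. DICE, a proposed distal enhancer of bx1, which encodes the enzyme that branches benzoxazinoid defence compounds off tryptophan synthesis, corresponds to candidate V4:H1318 on chromosome 4. There the husk region (3676607 to 3677091, 485 bp) and the V2-IST region (3676783 to 3677199, 417 bp) had a ratio of 1.16. These lengths do not measure signal, and by ChIP-qPCR the paper reports more H3K9ac at DICE in V2-IST than in husk. The husk region began 176 bp before the V2-IST region and ended short of its upper end, so that this member is 1 of the 99 that were not nested, and each region covered a small part of the candidate (17.4% in husk, 17.7% in V2-IST). The other candidates named by the study were no members. The candidates at the enhancers of b1 and tb1, genes for a pigment regulator and a regulator of branching, had husk regions of 2683 and 1344 bp and no listed V2-IST region. At the tb1 enhancer the paper nonetheless reports H3K9ac enrichment in both tissues by ChIP-qPCR. It puts the husk-only call there down to strict criteria. Candidate V2:H1320 was just outside the rule, with 476 bp in husk and 515 bp in V2-IST, while V373:H108 had 645 bp in husk and 273 bp in V2-IST.

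Some members may serve as plain examples of the shape at shared candidates. At V259:H309 on chromosome 2 the husk region (162584841 to 162585406, 566 bp) was centred 2 bp from the candidate's midpoint and held a V2-IST region of 355 bp with margins of 128 and 83 bp. At V147:H573 on chromosome 1 a husk region of 566 bp (14449606 to 14450171) held a V2-IST region of 256 bp, a ratio of 2.21. The longest V2-IST region of any member, given above, lay in shared candidate V32:H1223. The 5 husk-specific candidates with a member were H447 and H78 on chromosome 4, H874 on chromosome 5, and H44 and H830 on chromosome 9, with 435 to 597 bp in husk and 283 to 387 bp in V2-IST.

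Members were seldom near the starts of the 826 genes that the study linked to candidates, a selected set and not all maize genes. A husk region lay within 1 kb of such a start at 8 members (0.964%, 0.489 to 1.89%), against 417 of the other sites (2.77%, 2.52 to 3.05%) and 2.68% of all one-to-one sites. Short husk regions without a V2-IST region stood at 0.974% (0.638 to 1.49%), level with members. By husk length the share over all one-to-one sites was 1.21% under 600 bp, 1.25% at 600 to 799 bp, 1.57% at 800 to 999 bp, 2.07% at 1000 to 1499 bp and 5.92% at 1500 bp or more. It was therefore highest at the longest sites, whereas overlap with candidates was highest at the shortest. Longer regions reach a gene start more often by their length alone, and the rule caps the length of members. By husk midpoints 7 members remained, but the other sites were not counted that way, so the part of length in this difference was not tested.

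In 7 of the 8 members near a linked gene, the husk midpoint lay downstream of the start, by 142 to 516.5 bp along the gene's strand, which is where H3K9ac is usually found. The same count was not made for the other sites near such starts, so it is not shown to be particular to members. The husk region spanned the start of Zm00001d001628 (chromosome 5, 117314081 to 117314664), Zm00001d005795 (chromosome 2, 188919043 to 188919490) and Zm00001d038306 (chromosome 6, 154116749 to 154117326). At Zm00001d035285 (chromosome 6, 19339974 to 19340552) the lower end of the husk region lay at the start to within 1 bp. At the first and the second of these the V2-IST region spanned the start too, and at Zm00001d035285 and Zm00001d038306 it began 94 and 163 bp downstream. In both of these the husk region extended farther past the V2-IST region on the side of the gene start than on the other side. At Zm00001d002751 and Zm00001d006512 on chromosome 2 and Zm00001d034050 on chromosome 1 the husk region began 83, 222 and 110 bp downstream of the start. At Zm00001d041161 on chromosome 3 the region (100924616 to 100925207) lay upstream, 894 bp from the start. The identifiers are those of the AGPv4 annotation, distances are exact to 1 bp, and no names for these genes were used here. Whether members lie in exons, introns or untranslated regions, and their sequence, were not analysed here, since both need the AGPv4 genome.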

How the data were processed

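H3K9ac ChIP-seq had been done on B73 husk (3 ChIP samples, 1 input) and V2-IST (2 ChIP samples, 1 input). Per the study's methods and the submitters' processing notes, the authors aligned reads to B73 RefGen_v4 with BWA, processed them with SAMtools, called peaks per replicate against input with MACS2 kept the peaks whose overlap between replicates reached a large set share, dropped the rest and merged those kept, the third husk replicate being compared with the already merged peaks. The deposited values, of no standard measurement unit (other), were the 2 coordinates (bp) that bound a merged region, so region ends and lengths depend on the merging, on the number of replicates and on depth, which the lists do not hold. No deposited column of sample values was left out (0).

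Lists were read and paired in Python 3.11.15 (numpy 2.4.6, pandas 2.3.3, scipy 1.17.1, matplotlib 3.10.9). Starts were converted to 1-based coordinates. Pairing was checked against bedtools 2.31.1 and tested on simulated data. Distances were gaps between region ends, and positions were relative to the last listed end on each chromosome. Candidates (1495) and linked gene starts (826) were placed by the positions in the study's supplementary list, and none of its expression or rank values was used. Samples are combined in each list, so counts, medians and shares over sites are given without tests.

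The members, lists and measures were chosen with earlier results of these data known. Named sites were the extremes of length and ratio, the sites on either side of each limit, the member closest to the median husk length per chromosome, the largest midpoint shift, the closest pair, the 5 most isolated members, the fullest 1 Mb windows, members at candidates named by the study, at shared and at husk-specific candidates, and members within 1 kb of a linked gene start. The largest shift, the examples among shared candidates and the husk-specific candidates were added after their values were seen. Alternatives were pairing by 50% overlap of both regions, joining regions under 200 bp apart, a minimum length of 300 bp, a husk limit of 500 bp, a central 30% of the span, a distance of 2 kb, another window at gene starts, the mean ratio and midpoints in place of regions. Gene annotation, GC content and motifs were not analysed here, because no genome or annotation of the assembly used by the lists was at hand.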

Additional observations from a re-analysis of the deposited data

How the results depend on the processing

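No paired analysis was possible because each list already combines the replicates of its tissue, and for the same reason no replicate could be left out. Of 50 values recomputed under an alternative, 32 stayed inside the interval of the reported value (for numbers of sites, within 1.5 times) and 18 did not. These counts do not measure stability, since the outcome of several alternatives was set in advance. A narrower central span and a shorter distance, for example, can only lower a share. Joining regions under 200 bp apart changed none of its 10 values. No other region lay closer to a member than 846 bp in husk and 987 bp in V2-IST. This alternative could therefore not alter a member and says nothing on stability. Pairing by 50% overlap moved the median ratio to 1.41. A minimum length of 300 bp, which by its construction removes the shorter regions, moved the medians to 556 bp in husk, 389 bp in V2-IST and a ratio of 1.39. A husk limit of 500 bp, which by its construction removes the longer members, left 163 members with medians of 470 bp in husk and 333 bp in V2-IST, a ratio of 1.41, 83.4% nested, 36.8% in the central 50% of the chromosome and 20 at a candidate (12.3%). The mean ratio was 1.49. In the central 30% of the span lay 24.0% of members and 19.7% of the other sites, and another husk region lay within 2 kb at 5.06% of members and 8.15% of the other sites. By husk midpoints, chosen after seeing the data, 2.03% of the other sites lay in a candidate. Starts of linked genes had 7 members in place of 8 both by the promoter window and by midpoints. GC content of the central 200 bp was not run. Depth and signal per site, which set where a region ends, are not in the lists and limit every length given here.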
